A study of Homo sapiens with 54 samples.

Results

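DNA damage checkpoint kinases and their partners were followed in 2 triple negative breast cancer (TNBC) cell lines exposed to the PARP inhibitor olaparib and to cisplatin (CDDP), a platinum drug that crosslinks DNA. The group holds 10 genes chosen by name: ATM, ATR, ATRIP, RAD17, TOPBP1, CLSPN, CHEK1, CHEK2, WEE1 and CDC25A. All 10 were found among the 27470 rows of the table, and all 10 passed the filter on low values in both lines. CLSPN and CDC25A rose with either dose of CDDP alone in both lines, ATM and ATR were lower in olaparib resistant (OlaR) SUM1315 cells than in parental SUM1315 cells, and WEE1 was lower in OlaR MDA-MB-468 cells than in parental MDA-MB-468 cells.

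ATM and ATR are the kinases at the head of the DNA damage checkpoint. ATM responds mainly to double-strand breaks and activates the effector kinase CHEK2, while ATR, bound to ATRIP, responds to single-stranded DNA at stalled forks and activates CHEK1. RAD17 loads the ring-shaped 9-1-1 clamp, TOPBP1 stimulates ATR, and CLSPN (claspin) brings CHEK1 to ATR. Activated CHEK1 and CHEK2 mark the phosphatase CDC25A for destruction, which keeps cyclin-dependent kinases (CDKs) off, and WEE1 holds CDKs off by phosphorylating them. Much of this control acts on the proteins, whereas the measurements here are of transcripts.

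SUM1315 cells carry a BRCA1 mutation and MDA-MB-468 cells are BRCA1 wild type. Parental cells of each line were left untreated, given olaparib (8 µM for SUM1315, 3 µM for MDA-MB-468), given CDDP at a lower dose (MDA-MB-468 1 µM, SUM1315 2 µM) or a higher dose (MDA-MB-468 2.5 µM, SUM1315 4 µM), or given olaparib with either CDDP dose, all overnight. OlaR cells, selected by stepwise exposure to olaparib over months and kept in 25 µM (SUM1315) or 15 µM (MDA-MB-468) olaparib, were studied as such or with either CDDP dose. Each of the 18 conditions had 3 libraries made from the 3′ ends of transcripts, 54 in all. The sources used here describe 1 OlaR culture per line and do not say whether it is a clone or a pool. The labels name the libraries of a condition only by number and do not state that they came from separate cultures, so that p-values measure the spread between these libraries, which may be technical. OlaR cells were never free of olaparib, and they were kept at a higher dose than parental cells received.

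Parental SUM1315 libraries held between 4977284 and 7540920 counted reads and OlaR SUM1315 libraries between 3446613 and 4665505. Parental MDA-MB-468 libraries held between 5574767 and 9268162 and OlaR MDA-MB-468 libraries between 2070301 and 4676284. In each line every OlaR library thus held fewer reads than every parental library, so that depth and OlaR status go together. The part of depth in the OlaR differences was not tested. Values are given as adjusted read counts, which are reads per gene that the authors had scaled to a common library size. MDA-MB-468 libraries held the epithelial markers EPCAM (2630 to 3790) and KRT19 (9300 to 17700), both at no more than 5 reads in any SUM1315 library. Of the 6 epithelial markers examined, CDH1 (at most 3 reads in SUM1315) and KRT5 (at most 28.4) were likewise low in SUM1315, whereas KRT8 reached 154 and KRT18 was at 231 to 598 there, against at least 447 and 584 in MDA-MB-468. SUM1315 libraries instead held the mesenchymal marker VIM (7930 to 13200), and of 4 markers of other cell types PTPRC (leukocytes) reached no more than 8 reads in any library of either line. The other markers were present in SUM1315, with PECAM1 (endothelium) at 45.0 to 207, COL1A1 (fibroblasts) at 132 to 796 and PDGFRB (stroma) at 9.07 to 87.6, against at most 16.4, 78.9 and 2.36 in MDA-MB-468. Their part in the results was not tested. PGR had at most 3 reads in any library, while ESR1, whose protein TNBC lacks by definition, was at 24.9 to 221 in MDA-MB-468 and at no more than 25.6 in SUM1315.

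The promoters of 4 members are shown because these members were called most often in each direction, CLSPN and CDC25A for higher values and ATM and RAD17 for lower values. Each window runs from 250 bases before to 50 bases after a transcription start in RefSeq (GRCh38.p14), read on the strand of the gene. Capitals mark the letters TTTNNCGC on either strand, which resemble the binding site of E2F, the factor family that drives S phase genes. The windows lie at chr1:35769929-35770228 (minus strand) for CLSPN, chr3:48188368-48188667 (minus strand) for CDC25A, chr11:108222817-108223116 (plus strand) for ATM and chr5:69369568-69369867 (plus strand) for RAD17. For ATM and RAD17, and in the counts below for ATRIP and CHEK1, only the first of several listed starts was taken. A window was found for 9 of the 10 members (all but WEE1).
CLSPN: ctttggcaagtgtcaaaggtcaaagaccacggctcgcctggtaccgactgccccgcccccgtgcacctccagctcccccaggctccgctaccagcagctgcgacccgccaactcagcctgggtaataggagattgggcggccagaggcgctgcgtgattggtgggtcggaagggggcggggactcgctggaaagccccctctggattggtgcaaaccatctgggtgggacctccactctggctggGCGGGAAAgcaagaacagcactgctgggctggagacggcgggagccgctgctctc
CDC25A: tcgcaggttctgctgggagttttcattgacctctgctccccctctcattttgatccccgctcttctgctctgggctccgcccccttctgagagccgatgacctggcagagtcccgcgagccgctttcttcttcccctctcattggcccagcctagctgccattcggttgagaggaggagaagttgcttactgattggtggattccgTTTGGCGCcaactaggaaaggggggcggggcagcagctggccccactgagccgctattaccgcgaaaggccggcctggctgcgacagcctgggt
ATM: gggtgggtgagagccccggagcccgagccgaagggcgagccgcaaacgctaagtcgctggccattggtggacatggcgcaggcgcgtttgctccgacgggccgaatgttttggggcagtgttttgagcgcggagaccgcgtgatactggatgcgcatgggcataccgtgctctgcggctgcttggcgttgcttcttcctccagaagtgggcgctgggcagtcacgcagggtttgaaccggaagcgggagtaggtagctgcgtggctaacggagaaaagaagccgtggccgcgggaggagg
RAD17: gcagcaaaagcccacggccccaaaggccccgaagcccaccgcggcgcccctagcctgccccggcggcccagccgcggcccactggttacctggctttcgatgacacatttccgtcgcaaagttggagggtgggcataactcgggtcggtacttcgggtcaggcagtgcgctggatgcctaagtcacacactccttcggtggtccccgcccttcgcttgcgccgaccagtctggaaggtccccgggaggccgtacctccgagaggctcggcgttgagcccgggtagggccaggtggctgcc

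The E2F-like letters began 5 bases before the start in CLSPN (GCGGGAAA, minus strand) and 44 bases before it in CDC25A (TTTGGCGC, plus strand), and the windows of ATM and RAD17 held none. Of the 9 members with a window, 4 held these letters (TOPBP1, CLSPN, CHEK2 and CDC25A), against 6.89% of all 35116 windows. The latter take in all listed starts of a gene, whereas each member entered with a single start. CCAAT or its complement stood in 6 of the 9 windows, against 34.6% of all windows. In the CLSPN window it stood at 3 places, the first of which overlaps a GGGCGG, and the E2F-like letters overlap another. TTTGAA, the letters of the cell cycle homology region (CHR), stood in 1 of the 9, that of ATM, against 15.2%. The GC box GGGCGG stood in 8 of the 9, against 45.0%. A match of letters is a description of the window and was not tested as a binding site.

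At the higher dose of CDDP alone, CLSPN rose 4.65-fold, CDC25A 3.09-fold, CHEK1 2.41-fold and TOPBP1 1.75-fold over untreated SUM1315 cells, while ATM fell to 0.754 and RAD17 to 0.648 of the untreated level. ATR, ATRIP, CHEK2 and WEE1 did not pass the test. These calls are 6 of the 10 members, in a comparison where 43.9% of 13133 tested genes were called at an adjusted p of 0.05, so that the share of members is not far from the background. At the lower dose 6 of 10 were called, beside 33.9% of all genes, with TOPBP1, CLSPN, CHEK1, CHEK2 and CDC25A higher and ATM lower. Between the doses 3 of 10 differed, beside 10.5%: CLSPN and CHEK1 were higher and RAD17 lower at the higher dose. In MDA-MB-468 cells 4 of 10 were called at the higher dose, beside 25.1% of 13012 tested genes, with CLSPN, CHEK1 and CDC25A higher and RAD17 lower. The lower dose gave 5 of 10, beside 20.0%, and the step between the doses gave only CDC25A, beside 6.96%. Each value is of RNA from a bulk culture, so that a change in the share of cells in a cell cycle phase and a change of RNA per cell cannot be told apart.

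Olaparib alone called 1 member in each line. It was CLSPN in SUM1315 cells, beside 36.0% of all genes, and CHEK2 in MDA-MB-468 cells, beside 21.5%. Adding the lower CDDP dose to olaparib called 2 members in SUM1315 cells (CHEK1 and CDC25A, both higher), beside 3.76%, and 2 in MDA-MB-468 cells (TOPBP1 and CLSPN, both higher), beside 5.26%. Adding the higher dose called 4 in SUM1315 cells (TOPBP1, CLSPN, CHEK1 and CDC25A, all higher), beside 8.44%, and 5 in MDA-MB-468 cells (the same 4 higher and CHEK2 lower), beside 23.1%. When olaparib and the higher CDDP dose were set against that dose alone, 2 members were called in SUM1315 cells (CHEK1 and CDC25A, both lower), beside 12.8%, and 3 in MDA-MB-468 cells (TOPBP1 and CLSPN higher, CHEK2 lower), beside 11.9%.

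OlaR cells differed from olaparib-treated parental cells in 7 of 10 members in SUM1315, beside 47.2% of all genes, and in 6 of 10 in MDA-MB-468, beside 51.5%. Against untreated parental cells the counts were 6 of 10, beside 54.7%, and 7 of 10, beside 53.5%. These shares are close to those of all genes, and the directions differed by line: CLSPN was higher in OlaR cells of both lines, whereas ATM, ATR, CHEK1 and WEE1 are described below line by line. In OlaR SUM1315 cells the lower CDDP dose called none of the 10 members by limma, beside 1.42% of all genes, with 4 members at an unadjusted p under 0.05, and edgeR, DESeq2 and limma voom also called none. The higher dose called 6 (ATM, ATR, TOPBP1, CLSPN, CHEK1 and CDC25A, all higher), beside 16.7%. In OlaR MDA-MB-468 cells the lower dose called 2 (CLSPN and CDC25A, both higher), beside 4.76%, and the higher dose called 4 (CLSPN and CDC25A higher, ATM and ATR lower), beside 18.7%. Over the 22 comparisons within a line, which share libraries, CLSPN was called higher in 17, CDC25A in 14, CHEK1 in 10 and TOPBP1 in 8. ATM was called lower in 6 and RAD17 in 5. Between 1.42% and 54.7% of all genes were called in each of these comparisons. The calls of other genes over the 22 were not counted, so that these numbers do not set the members apart from other genes.

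**Figure D1:**
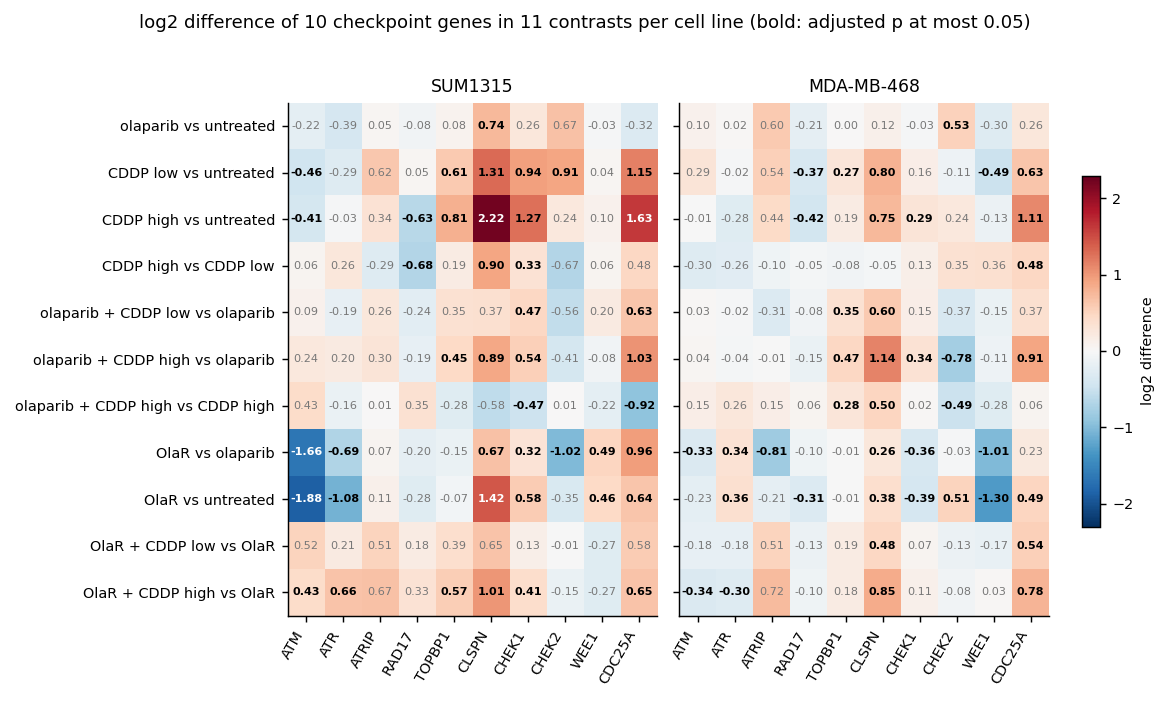
Log2 differences of the 10 genes (columns) in 11 comparisons (rows) for SUM1315 (left) and MDA-MB-468 (right), with each value printed in its cell and values with an adjusted p of at most 0.05 in bold. The strongest red is CLSPN under the higher CDDP dose in SUM1315 (2.22), the strongest blue is ATM in OlaR against untreated SUM1315 (-1.88), and in MDA-MB-468 the strongest blue is WEE1 in OlaR against untreated cells (-1.30).

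Requiring a fold change of at least 2 as well, which is among the limits described for DEGs, left fewer member calls in the comparisons of 2 conditions within a line. In SUM1315 cells these were CLSPN and CDC25A under the lower CDDP dose (2 of 10, beside 8.79% of genes), CLSPN, CHEK1 and CDC25A under the higher dose (3 of 10, beside 15.4%), CDC25A when the higher dose was added to olaparib (1 of 10, beside 1.32%) and CLSPN when it was added in OlaR cells (1 of 10, beside 3.82%). ATM and CHEK2 passed it in OlaR against olaparib-treated SUM1315 cells (2 of 10, beside 16.6%), and ATM, ATR and CLSPN in OlaR against untreated SUM1315 cells (3 of 10, beside 23.0%). In MDA-MB-468 cells the calls were CDC25A under the higher CDDP dose (1 of 10, beside 2.59%), CLSPN when that dose was added to olaparib (1 of 10, beside 1.91%), and WEE1 in OlaR against olaparib-treated cells (1 of 10, beside 14.3%) and against untreated cells (1 of 10, beside 15.0%).

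ATM, the kinase for double-strand breaks, spans 146059 bases of chromosome 11 (108223044 to 108369102, plus strand). In parental SUM1315 cells it was at 228, 237 and 256 adjusted read counts in the untreated libraries and at 176, 214 and 232 with olaparib. In OlaR SUM1315 cells it was at 61.3, 74.4 and 58.5, so that no OlaR library came near a parental one. The log2 difference from olaparib-treated parental cells was -1.66 ± 0.15 (SE), 0.316 of the parental level (adjusted p = 9.53e-11), and from untreated cells it was -1.88 ± 0.15 (adjusted p = 3.15e-12). All of ATM's last exon is overlapped on the opposite strand by C11orf65, which had at most 15 reads in any library, and the strand setting used for counting is not given in the sources used here.

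CDDP alone moved ATM less. In SUM1315 cells the values were 184, 165 and 173 at the lower dose and 171, 183 and 189 at the higher dose, all under the untreated libraries, with log2 differences of -0.46 ± 0.15 (adjusted p = 0.0176) and -0.41 ± 0.15 (adjusted p = 0.029). The lower-dose call was lost without CDDP library 2 (adjusted p = 0.0633) or untreated library 3 (0.0705), and the higher-dose call without CDDP library 1 (0.0919) or 2 (0.0559) or untreated library 2 (0.0532) or 3 (0.0937). With olaparib and the higher dose ATM was at 287, 230 and 219, and the CDDP effect differed from that without olaparib by 0.65 ± 0.22 (adjusted p = 0.028). That call was lost without CDDP library 1 (0.064), olaparib library 1 (0.0946), combination library 1 (0.0896) or untreated library 3 (0.063). In OlaR SUM1315 cells the higher dose gave 94.1, 82.0 and 86.1 against 61.3, 74.4 and 58.5, a log2 difference of 0.43 ± 0.15 (adjusted p = 0.0469) that was lost in 9 of 10 other analyses and without OlaR library 1 (0.131) or 3 (0.163) or CDDP library 1 (0.156), 2 (0.0595) or 3 (0.0837).

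In MDA-MB-468 cells ATM was at 215, 243 and 248 untreated, at 281, 235 and 244 with olaparib and at 195, 196 and 209 in OlaR cells. The OlaR libraries lay under all 3 olaparib libraries, by a log2 difference of -0.33 ± 0.11 (adjusted p = 0.00919), which was not called without olaparib library 1 (-0.26, adjusted p = 0.0789). They also lay under all 3 untreated libraries, but that difference (-0.23) was not called. The higher CDDP dose took OlaR MDA-MB-468 cells to 140, 161 and 174, a difference of -0.34 ± 0.11 (adjusted p = 0.0211). Voom, both edgeR analyses and DESeq2 did not call it (adjusted p from 0.0635 to 0.128), nor did fits without CDDP library 1 (0.152) or OlaR library 3 (0.0795). The OlaR difference was larger in SUM1315 than in MDA-MB-468 by -1.33 ± 0.17 on the log2 scale (adjusted p = 2.03e-08).

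ATR, the kinase for stalled forks, lies on chromosome 3 (142449007 to 142578733, minus strand). In SUM1315 cells it was at 241, 221 and 252 untreated, at 148, 188 and 212 with olaparib and at 119, 99.2 and 118 in OlaR cells. The OlaR libraries lay under every olaparib library, with a log2 difference of -0.69 ± 0.17 (adjusted p = 0.00141), and of -1.08 ± 0.17 from untreated cells (adjusted p = 2.96e-06). The higher CDDP dose in OlaR SUM1315 cells gave 159, 200 and 174, a rise of 0.66 ± 0.17 (adjusted p = 0.0081) that limma voom did not call (0.0523). With CDDP alone ATR was at 252, 259 and 191 in SUM1315 cells and did not pass the test (log2 difference -0.03 ± 0.17).

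In MDA-MB-468 cells ATR went the other way with resistance. It was at 226, 204 and 213 with olaparib and at 278, 271 and 267 in OlaR cells, higher in every library, by 0.34 ± 0.11 on the log2 scale (adjusted p = 0.00753). The difference between the lines in the OlaR effect was -1.03 ± 0.20 (SUM1315 minus MDA-MB-468, adjusted p = 4.55e-05). The higher CDDP dose in OlaR MDA-MB-468 cells gave 201, 224 and 240, with a log2 difference of -0.30 ± 0.11 (adjusted p = 0.0483). That call was lost with the block, with median centring, by voom, by both edgeR analyses and by DESeq2 (adjusted p from 0.0546 to 0.117), and without OlaR library 1 (0.122), 2 (0.0965) or 3 (0.0795) or CDDP library 1 (0.217) or 2 (0.0855). ATRIP, the subunit that ties ATR to single-stranded DNA (chromosome 3, 48446710 to 48467645, plus strand), had the fewest reads of the members, with 12 in its lowest library. In MDA-MB-468 it was at 31.1, 72.2 and 30.5 with olaparib and at 25.0, 21.0 and 23.1 in OlaR cells, a log2 difference of -0.81 ± 0.28 (adjusted p = 0.0133). Without olaparib library 2, the library at 72.2, the difference was -0.41 (adjusted p = 0.256). It was the only ATRIP call, and 1835 of the 2159 bases of its last exon are shared with TREX1 on the same strand. TREX1 itself was at 5.41 to 74.9, and how reads over both genes were counted is not given in the sources used here.

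**Figure D2:**
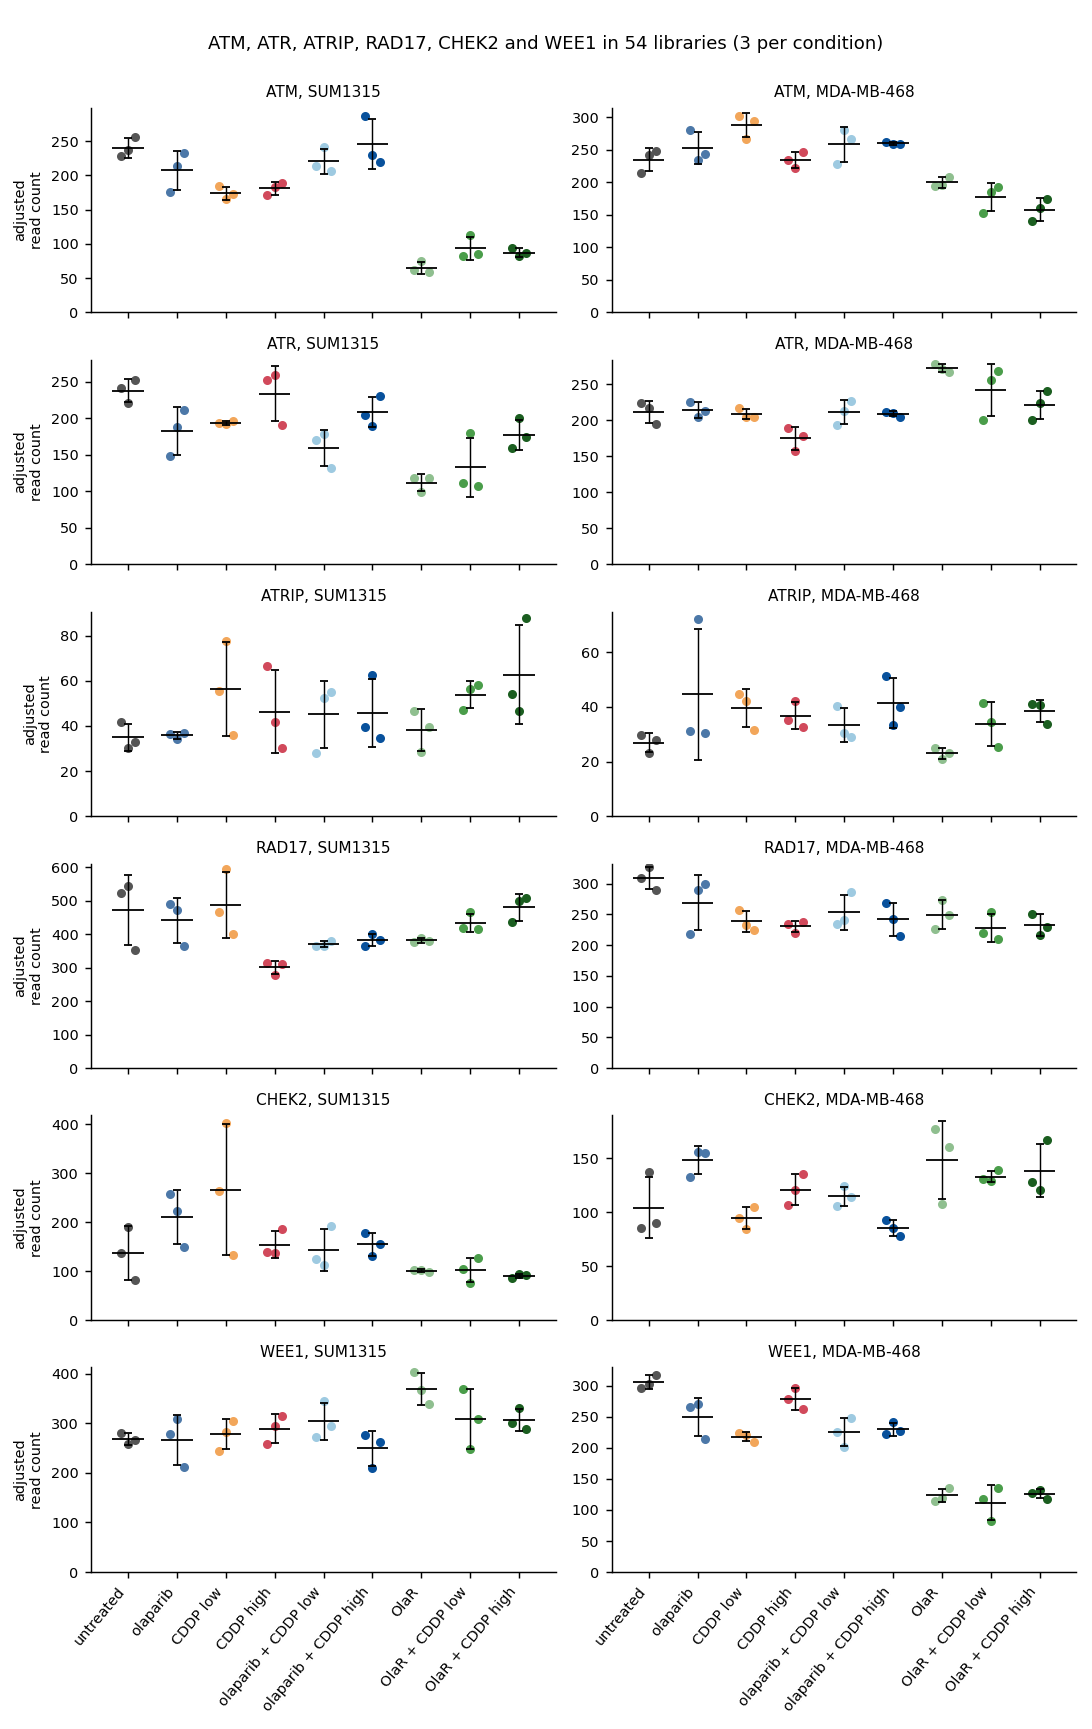
Adjusted read counts of ATM, ATR, ATRIP, RAD17, CHEK2 and WEE1 (vertical axes, each from 0) in the 9 conditions of SUM1315 (left) and MDA-MB-468 (right), with 3 points per condition for the libraries, a line at the mean and bars of 1 SD. ATM drops in OlaR SUM1315 (61.3, 74.4 and 58.5) and WEE1 in OlaR MDA-MB-468 (115, 120 and 135), while the points of ATRIP and of CHEK2 in SUM1315 scatter widely.

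RAD17, the clamp loader subunit, lies on chromosome 5 (69369293 to 69414801, plus strand) and was called lower in 5 comparisons and higher in none. In SUM1315 cells it was at 522, 544 and 352 untreated and at 313, 277 and 312 with the higher CDDP dose, lower in every library, by 0.63 ± 0.14 on the log2 scale (fold 0.648, adjusted p = 0.000409). At the lower dose it was at 465, 595 and 401, so that the fall came between the doses (log2 difference -0.68 ± 0.14, adjusted p = 0.00136). No such fall was called in SUM1315 cells with olaparib present. The higher dose added to olaparib gave 364, 400 and 384 against 489, 471 and 365 (-0.19 ± 0.14, not called). For RAD17 the difference between the responses with and without olaparib was not called either, so that a lost fall is not shown. In OlaR SUM1315 cells RAD17 went from 377, 390 and 379 to 435, 498 and 509, a log2 difference of 0.33 that was not called. In MDA-MB-468 cells it was at 309, 326 and 290 untreated, at 257, 233 and 225 with the lower dose and at 234, 220 and 237 with the higher dose. Both doses lay under all untreated libraries, by -0.37 ± 0.11 (adjusted p = 0.0142) and -0.42 ± 0.11 (adjusted p = 0.00413). The lower-dose call was lost without CDDP library 3 (0.0684) or untreated library 2 (0.0699). OlaR MDA-MB-468 cells were at 226, 273 and 249, with a difference of -0.31 ± 0.11 from untreated cells (adjusted p = 0.0189) that was lost with median centring (0.0932) and without OlaR library 1 (0.108) or untreated library 2 (0.0775).

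TOPBP1, the activator of ATR, lies on chromosome 3 (133598175 to 133662380, minus strand). It was at 319, 276 and 268 in untreated SUM1315 cells, at 403, 430 and 491 with the lower CDDP dose and at 511, 476 and 525 with the higher dose. Each treated library exceeded each untreated one, and the log2 differences were 0.61 ± 0.14 (adjusted p = 0.000978) and 0.81 ± 0.14 (adjusted p = 2.13e-05). With olaparib it was at 295, 277 and 342, and with olaparib and the higher dose at 381, 480 and 387. This rise of 0.45 ± 0.14 (adjusted p = 0.0454) was lost with no filter, with the block and with median centring, and without olaparib library 1 (0.139) or 2 (0.183) or combination library 1 (0.0553), 2 (0.233) or 3 (0.0679). OlaR SUM1315 cells were at 311, 218 and 299 and rose to 477, 350 and 396 with the higher dose, by 0.57 ± 0.14 (adjusted p = 0.00548), a call lost without OlaR library 2 (0.0679) or CDDP library 1 (0.057).

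In MDA-MB-468 cells TOPBP1 moved less. It was at 526, 481 and 540 untreated and at 669, 583 and 615 with the lower CDDP dose, a rise of 0.27 ± 0.08 (adjusted p = 0.0134) that was lost without CDDP library 1 (0.0971) or untreated library 2 (0.0917). With olaparib it was at 527, 493 and 525, and olaparib with the higher dose gave 670, 713 and 766, all above, by 0.47 ± 0.08 (adjusted p = 1.04e-05). Olaparib with the lower dose gave 593, 667 and 712, a rise of 0.35 ± 0.08 (adjusted p = 0.00479), with an adjusted p of 0.0563 without combination library 3. Against the higher CDDP dose alone the combination was higher by 0.28 ± 0.08 (adjusted p = 0.0171), lost without CDDP library 3 (0.131) or combination library 3 (0.12). The higher dose alone gave 612, 614 and 545 and did not pass the test (0.19, adjusted p = 0.0763), and the response to it differed from that of SUM1315 by 0.61 ± 0.17 (SUM1315 minus MDA-MB-468, adjusted p = 0.00457).

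CLSPN, the mediator that presents CHEK1 to ATR, lies on chromosome 1 (35720218 to 35769978, minus strand) and was the member called most often. In SUM1315 cells it was at 156, 99.7 and 190 untreated, at 257, 193 and 283 with olaparib, at 304, 319 and 474 with the lower CDDP dose and at 789, 581 and 659 with the higher dose. Untreated libraries were lowest and the dose groups did not overlap. The log2 differences from untreated cells were 0.74 ± 0.20 with olaparib (adjusted p = 0.004), 1.31 ± 0.20 with the lower dose (adjusted p = 4.73e-06) and 2.22 ± 0.20 with the higher dose (adjusted p = 1.03e-10). The olaparib call was lost without untreated library 2, the library at 99.7 (0.48, adjusted p = 0.0603). The step between the doses was 0.90 ± 0.20 (adjusted p = 0.00297).

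With olaparib present, the CLSPN response of SUM1315 cells to CDDP was smaller. Olaparib and the higher dose gave 369, 584 and 417, a rise of 0.89 ± 0.20 over olaparib (adjusted p = 0.00433, and 0.0572 without combination library 2), and the difference from the response without olaparib was -1.33 ± 0.28 (adjusted p = 0.000849). The rise of 0.74 with olaparib alone enters that difference. Set directly against the higher dose alone, the combination was not called (-0.58 ± 0.20, adjusted p = 0.0519), with overlapping libraries. OlaR SUM1315 cells were already at 472, 350 and 347, above all olaparib libraries, by 0.67 ± 0.20 (adjusted p = 0.00634), lost without OlaR library 1 (0.0562) or olaparib library 2 (0.0599). Against untreated cells the OlaR difference was 1.42 ± 0.20 (adjusted p = 4.07e-07). The higher dose took OlaR SUM1315 cells to 1000, 620 and 756, the highest CLSPN mean of the line, by 1.01 ± 0.20 (adjusted p = 0.000601).

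In MDA-MB-468 cells CLSPN started higher, at 687, 659 and 742 untreated. It rose to 1290, 1090 and 1270 with the lower CDDP dose (0.80 ± 0.07, adjusted p = 1.33e-12) and to 1230, 1140 and 1150 with the higher dose (0.75 ± 0.07, adjusted p = 6.9e-12), so that the doses overlapped. Olaparib alone left it at 751, 688 and 829 (0.12 ± 0.07, not called). Olaparib with the higher dose gave 1630, 1630 and 1720, above every library of either drug alone, by 1.14 ± 0.07 over olaparib (adjusted p = 3.51e-18) and by 0.50 ± 0.07 over CDDP (adjusted p = 9.21e-07). Here the CDDP response was larger with olaparib than without, by 0.39 ± 0.10 (adjusted p = 0.00429). OlaR MDA-MB-468 cells were at 916, 906 and 893 and rose with the lower dose to 1280, 1400 and 1130 (0.48 ± 0.07, adjusted p = 2.42e-05) and with the higher dose to 1530, 1630 and 1740 (0.85 ± 0.07, adjusted p = 3.88e-13).

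CHEK1, the effector kinase of ATR, lies on chromosome 11 (125625163 to 125676255, plus strand). In SUM1315 cells it was at 294, 288 and 248 untreated, at 511, 528 and 553 with the lower CDDP dose and at 675, 658 and 670 with the higher dose. The 3 groups were fully apart, with log2 differences from untreated cells of 0.94 ± 0.11 (adjusted p = 4.64e-08) and 1.27 ± 0.11 (adjusted p = 3.71e-11). The step between the doses (0.33 ± 0.11, adjusted p = 0.0482) was lost with no filter, with the block and in 5 of 6 fits without a library, those without lower-dose library 1 or 2 or higher-dose library 1, 2 or 3 (adjusted p from 0.0932 to 0.157). With olaparib it was at 299, 328 and 367, and with olaparib and the higher dose at 475, 503 and 464, a rise of 0.54 ± 0.11 (adjusted p = 0.00151). The latter lay under all libraries of the higher dose alone (-0.47 ± 0.11, adjusted p = 0.00346), and the CDDP response was smaller with olaparib by 0.73 ± 0.16 on the log2 scale (log2 difference -0.73, adjusted p = 0.000788). With olaparib and the lower dose CHEK1 was at 530, 389 and 467, a rise of 0.47 ± 0.11 (adjusted p = 0.0138) that was lost without olaparib library 1 (0.0942) or 2 (0.0562) or combination library 1 (0.0961).

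OlaR cells of the lines moved CHEK1 in opposite directions. In SUM1315 it was at 442, 423 and 377 in OlaR cells, above all olaparib libraries, by 0.32 ± 0.11 (adjusted p = 0.0159), a call lost without OlaR library 1 (0.0751) or olaparib library 1 (0.0981), and above untreated cells by 0.58 ± 0.11 (adjusted p = 3.99e-05). In MDA-MB-468 it was at 646, 654 and 624 with olaparib and at 488, 480 and 532 in OlaR cells, lower in every library, by -0.36 ± 0.07 (adjusted p = 1.41e-05). The difference between the lines was 0.68 ± 0.12 (adjusted p = 5.63e-06). The higher CDDP dose raised CHEK1 in OlaR SUM1315 cells to 586, 553 and 510 (0.41 ± 0.11, adjusted p = 0.00974, lost without OlaR library 3 at 0.062 or CDDP library 1 at 0.0564). In OlaR MDA-MB-468 cells it was at 535, 541 and 541 with that dose and did not pass the test (0.11 ± 0.07). Untreated MDA-MB-468 cells were at 655, 655 and 654, and the higher dose gave 786, 831 and 785, a rise of 0.29 ± 0.07 (adjusted p = 0.00104) that was smaller than in SUM1315 by 0.98 ± 0.12 (adjusted p = 8.15e-09).

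**Figure D3:**
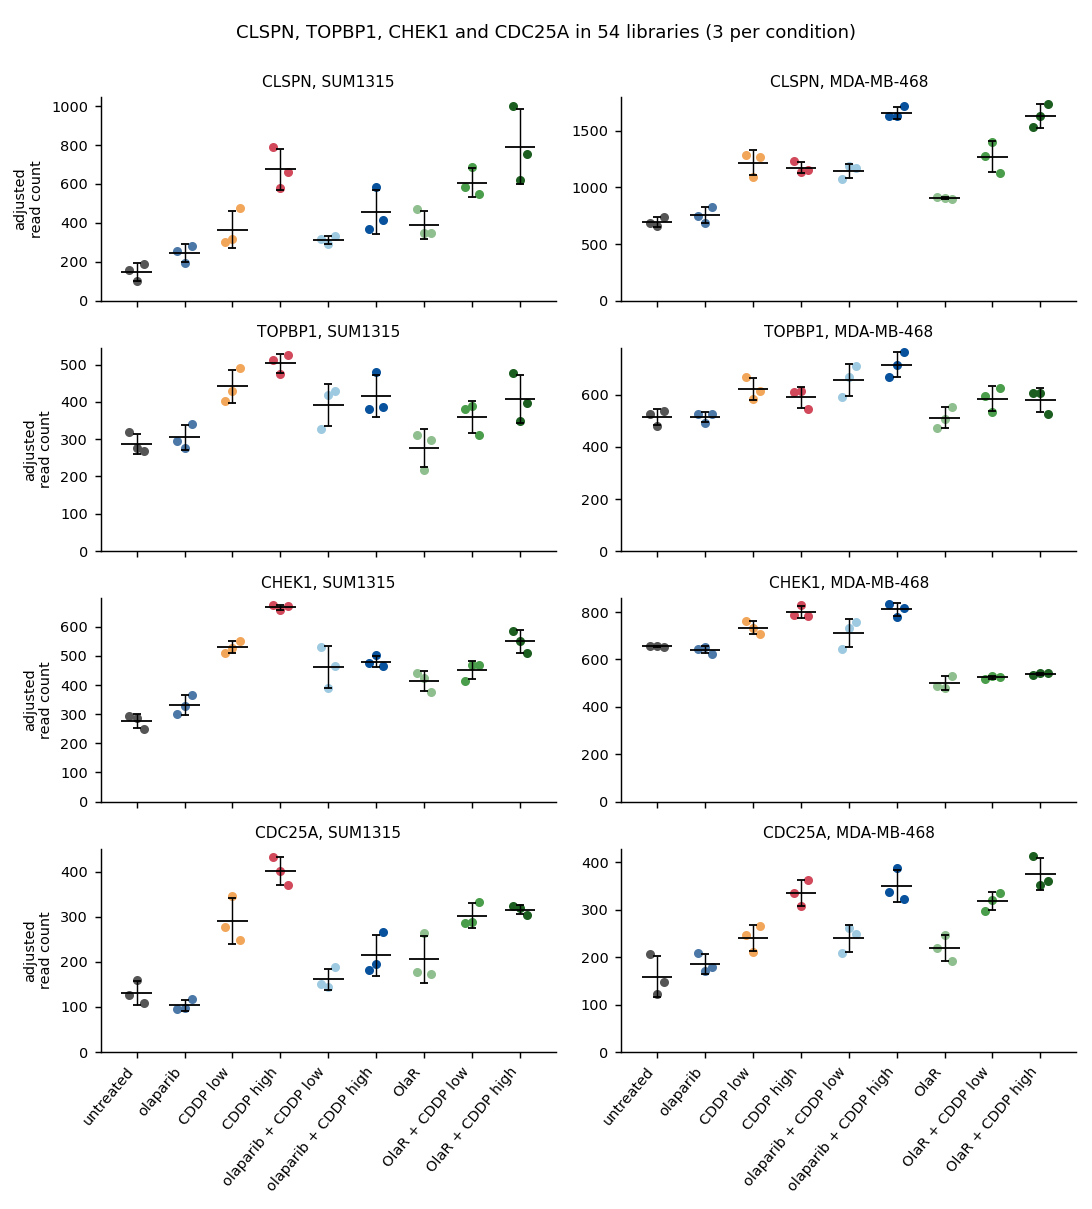
Adjusted read counts of CLSPN, TOPBP1, CHEK1 and CDC25A (vertical axes, each from 0) in the 9 conditions of SUM1315 (left) and MDA-MB-468 (right), with 3 points per condition for the libraries, a line at the mean and bars of 1 SD. In SUM1315 all 4 genes climb from untreated to the higher CDDP dose, CLSPN from 99.7 to 190 up to 581 to 789. CHEK1 in OlaR MDA-MB-468 lies at 480 to 532 without CDDP and at 535 to 541 with the higher dose, a difference that was not called.

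CHEK2, the effector kinase of ATM, lies on chromosome 22 (28687743 to 28742422, minus strand), and its libraries differed widely within several parental SUM1315 conditions. It was at 137, 191 and 81.0 in untreated SUM1315 cells, at 258, 223 and 150 with olaparib and at 264, 402 and 134 with the lower CDDP dose. In each of these 3 conditions library 3 was the lowest for CHEK2, and it was also the lowest for RAD17, which read 352, 365 and 401 in those libraries. The lower-dose difference from untreated cells was 0.91 ± 0.28 (adjusted p = 0.0127) with overlapping libraries, and was lost when only the groups compared were fitted (0.0874) and without CDDP library 2 (0.161) or untreated library 3 (0.144). OlaR SUM1315 cells were at 103, 102 and 97.9, under all olaparib libraries, by -1.02 ± 0.28 (fold 0.494, adjusted p = 0.00361), but were not apart from untreated cells (-0.35 ± 0.28).

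In MDA-MB-468 cells CHEK2 was at 85.6, 137 and 90.4 untreated and at 133, 156 and 155 with olaparib, a difference of 0.53 ± 0.17 (adjusted p = 0.0159) with overlapping libraries. It was lost without olaparib library 2 (0.0625) or 3 (0.0533) or untreated library 1 (0.128) or 3 (0.0914). Adding the higher CDDP dose to olaparib gave 92.9, 85.7 and 78.2, under all olaparib libraries, by -0.78 ± 0.17 (adjusted p = 0.000253), and this CDDP response differed from that without olaparib by -1.02 ± 0.24 (adjusted p = 0.000922). The combination was also under the higher dose alone (-0.49 ± 0.17, adjusted p = 0.0411), which was lost with no filter (0.0861) and without CDDP library 2 (0.0971) or 3 (0.181) or combination library 2 (0.0961) or 3 (0.16). OlaR MDA-MB-468 cells were at 177, 108 and 160, which overlaps with untreated cells (0.51 ± 0.17, adjusted p = 0.00888), lost without OlaR library 1 (0.0964) or untreated library 1 (0.0803) or 3 (0.0568).

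WEE1, the kinase that restrains CDKs, lies on chromosome 11 (9573670 to 9593457, plus strand). In MDA-MB-468 cells it was at 297, 303 and 318 untreated, at 266, 270 and 215 with olaparib and at 115, 120 and 135 in OlaR cells. With CDDP the OlaR values were 118, 82.0 and 136 at the lower dose and 128, 132 and 118 at the higher dose, so that all 9 OlaR libraries lay under all 18 parental ones, whose lowest value was 202. The log2 difference of OlaR from olaparib-treated cells was -1.01 ± 0.13 (fold 0.497, adjusted p = 2.06e-09) and from untreated cells -1.30 ± 0.13 (fold 0.405, adjusted p = 1.07e-12). In SUM1315 cells WEE1 went up instead, from 279, 308 and 211 with olaparib to 403, 366 and 339 in OlaR cells, by 0.49 ± 0.15 (adjusted p = 0.00684), lost without olaparib library 3 (0.33, adjusted p = 0.0846). The OlaR effect differed between the lines by 1.49 ± 0.20 (adjusted p = 3.1e-08). In parental MDA-MB-468 cells the lower CDDP dose gave 224, 220 and 210, a fall of 0.49 ± 0.13 (log2 difference -0.49, adjusted p = 0.00364), while the higher dose gave 279, 297 and 262 and did not pass the test (-0.13 ± 0.13).

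The genes beside WEE1 were examined after its values had been seen. In OlaR against olaparib-treated MDA-MB-468 cells, 19 of the 22 tested protein-coding genes within 2 Mb of WEE1 were lower and 1 was higher, with a median log2 difference of -1.28, against a median of -0.03 over all genes, of which 27.9% were lower. Those whose starts lay nearest were SWAP70 (-1.32, adjusted p = 7.4e-15), ZNF143 (-0.71, adjusted p = 0.00042), IPO7 (-0.93, adjusted p = 3.27e-17) and SBF2 (-0.84, adjusted p = 0.000778). Within 12 Mb, 105 of 125 tested genes were lower and 2 higher, and the medians of all 11 bins of 2 Mb were negative, from -1.35 to -0.57, although the bins held as few as 2 genes. In SUM1315 cells, where WEE1 itself was higher, 15 of 22 genes within 2 Mb were lower and 3 higher (median -0.60), and 64 of 133 within 12 Mb were lower and 15 higher, with 10 of 11 bin medians negative. DNA copy number was not analysed here. For ATM in SUM1315 cells, 6 of 13 tested genes within 2 Mb were lower in OlaR than in olaparib-treated cells and 1 was higher, with a median of -0.65, against -0.05 and 25.7% lower over all genes. CUL5 (-1.77, adjusted p = 1.74e-13), which starts 214 kb before ATM, and ACAT1 (-1.32, adjusted p = 1.12e-06) were among them. In MDA-MB-468 cells 6 of 11 genes near ATM were lower and 1 higher (median -0.20). Near ATR in SUM1315 cells 8 of 15 were lower and 1 higher (median -0.48). Near CHEK1 in MDA-MB-468 cells 15 of 24 were lower and 2 higher (median -0.45). In SUM1315 cells, where CHEK1 was higher (0.32), 11 of its 26 neighbours were lower and 1 higher (median -0.35). Near CHEK2 in MDA-MB-468 cells 15 of 32 were higher and 2 lower (median 0.49), while CHEK2 itself was at -0.03. Genes near CLSPN in SUM1315 cells, where CLSPN was higher, were lower in 14 of 29 cases and higher in 2 (median -0.45). The part of these neighbourhoods in the member values was not tested.

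**Figure D4:**
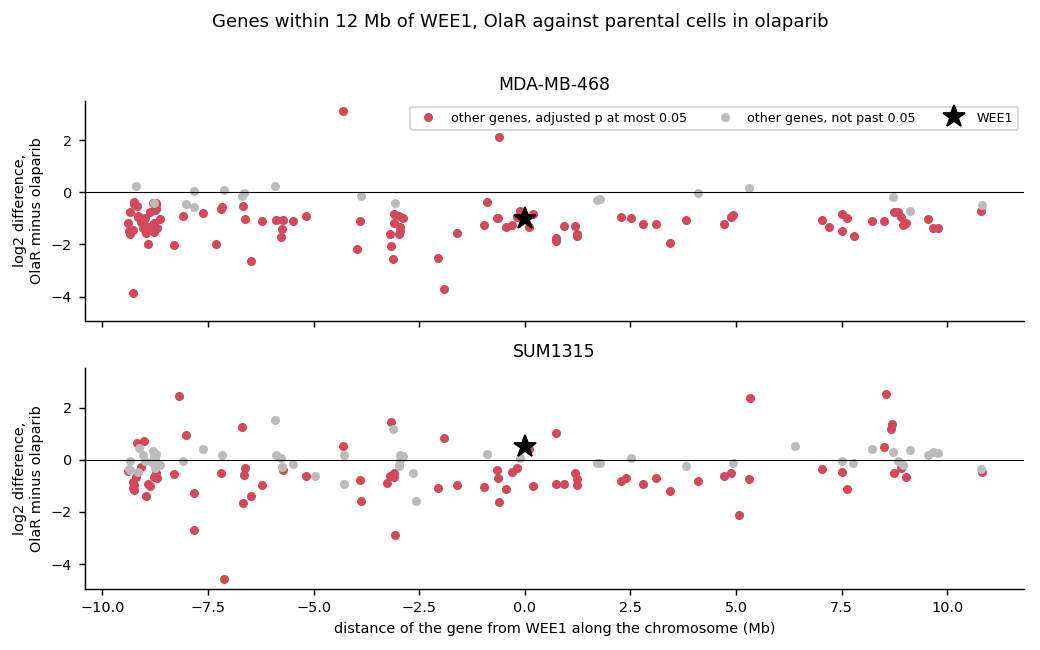
Log2 difference between OlaR and olaparib-treated parental cells (vertical axis) for protein-coding genes by their distance from WEE1 in Mb (horizontal axis), in MDA-MB-468 (upper panel) and SUM1315 (lower panel). Red points have an adjusted p of at most 0.05, grey points do not, and the star is WEE1. In MDA-MB-468 the points gather near -1 along the whole stretch, with 105 of 125 genes lower, and in SUM1315 64 of 133 are lower and 15 higher, while WEE1 lies above 0 at 0.49.

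CDC25A, the phosphatase that switches CDKs on and that the checkpoint destroys as a protein, lies on chromosome 3 (48157146 to 48188417, minus strand). In SUM1315 cells it was at 126, 160 and 108 untreated, at 278, 346 and 248 with the lower CDDP dose and at 434, 402 and 371 with the higher dose. All treated libraries were above all untreated ones, by 1.15 ± 0.17 (adjusted p = 2.4e-06) and 1.63 ± 0.17 (adjusted p = 1.86e-09). Olaparib alone left it at 96.1, 97.8 and 117, and olaparib with the higher dose gave 182, 195 and 266, a rise of 1.03 ± 0.17 over olaparib (adjusted p = 0.000124). This combination lay under every library of the higher dose alone, by -0.92 ± 0.17 (adjusted p = 0.000278). Olaparib with the lower dose gave 151, 145 and 188, a rise of 0.63 ± 0.17 (adjusted p = 0.03). That call was lost with no filter (0.0547) and without olaparib library 1 (0.122) or 2 (0.123) or combination library 1 (0.0564), 2 (0.0562) or 3 (0.121).

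OlaR SUM1315 cells held CDC25A at 178, 265 and 174, above all olaparib libraries, by 0.96 ± 0.17 (adjusted p = 1.94e-05). The higher dose gave 324, 320 and 305 there, a rise of 0.65 ± 0.17 (adjusted p = 0.00768, lost without OlaR library 1 at 0.051 or 3 at 0.0552). In MDA-MB-468 cells it was at 206, 122 and 147 untreated, at 247, 211 and 265 with the lower CDDP dose (0.63 ± 0.13, adjusted p = 0.000155) and at 335, 307 and 362 with the higher dose (1.11 ± 0.13, adjusted p = 1.18e-09). It was the only member that differed between the doses in this line (0.48 ± 0.13, adjusted p = 0.0119, lost without lower-dose library 2 at 0.104 or higher-dose library 3 at 0.0853). Olaparib with the higher dose gave 337, 388 and 323 (0.91 ± 0.13 over olaparib, adjusted p = 1.14e-07), which overlaps with that dose alone. OlaR MDA-MB-468 cells were at 218, 246 and 192 and rose to 297, 321 and 335 with the lower dose (0.54 ± 0.13, adjusted p = 0.00612, and 0.0516 without OlaR library 3) and to 413, 351 and 360 with the higher dose (0.78 ± 0.13, adjusted p = 5.8e-06).

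**Figure D5:**
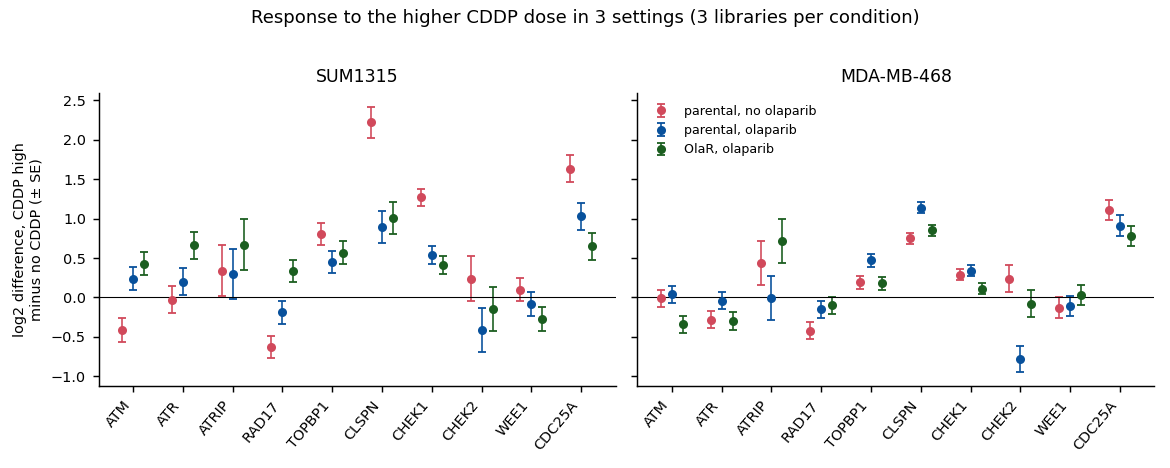
Log2 difference with the higher CDDP dose (vertical axis, ± SE of the fit) for the 10 genes (horizontal axis) in parental cells without olaparib (red), parental cells in olaparib (blue) and OlaR cells (green), for SUM1315 (left) and MDA-MB-468 (right). In SUM1315 the red points of CLSPN (2.22), CHEK1 (1.27) and CDC25A (1.63) stand above the blue and green ones, and in MDA-MB-468 CHEK2 stands apart in olaparib (-0.78). Red against blue was called for CLSPN and CHEK1 in SUM1315 but not for CDC25A, and red against green was not tested.

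Whether olaparib changed the CDDP response was tested as a difference of differences. In SUM1315 cells 3 of 10 members were called, beside 21.5% of all genes: CLSPN (-1.33) and CHEK1 (-0.73) responded less with olaparib, and ATM differed by 0.65. In MDA-MB-468 cells 2 of 10 were called, beside 20.2%: CLSPN responded more (0.39) and CHEK2 differed by -1.02. Whether OlaR cells responded to the higher dose otherwise than olaparib-treated parental cells was tested in the same way. None of the 10 members was called in SUM1315 cells by limma, beside 6.40% of all genes, with 1 member at an unadjusted p under 0.05, and edgeR, DESeq2 and voom also called none. In MDA-MB-468 cells 2 were called, beside 15.0%: CLSPN rose less in OlaR cells (-0.29 ± 0.10, adjusted p = 0.046) and CHEK2 differed by 0.70 ± 0.24 (adjusted p = 0.0337). Both were lost with no filter (0.111 for CLSPN and 0.0735 for CHEK2). The CLSPN call was also lost with the block (0.0511), with median centring (0.187), by edgeR with DESeq2 size factors (0.0576) and by DESeq2 (0.056), and without any of OlaR libraries 1 to 3, OlaR CDDP libraries 1 and 2, olaparib libraries 1 and 2 or combination libraries 1 to 3 (0.0533 to 0.165). The CHEK2 call was also lost by voom (0.0679) and without OlaR library 2 (0.167), OlaR CDDP library 3 (0.13), olaparib library 2 (0.0715) or 3 (0.0638), or combination library 2 (0.0568) or 3 (0.0845).

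The lines differed before treatment. In untreated cells 4 of 10 members were called between SUM1315 and MDA-MB-468, beside 72.7% of 14460 tested genes, a smaller share of the members than of all genes. CLSPN was lower in SUM1315 by 2.27 ± 0.17 on the log2 scale (log2 difference -2.27, adjusted p = 1.41e-16), CHEK1 by -1.24 ± 0.08 and TOPBP1 by -0.84 ± 0.12, and RAD17 was higher by 0.59 ± 0.13. The effect of the higher CDDP dose, for which SUM1315 received 4 µM and MDA-MB-468 received 2.5 µM, differed in 3 of 10, beside 27.5%: TOPBP1, CLSPN (1.46 ± 0.24, adjusted p = 5.21e-06) and CHEK1 rose more in SUM1315. The OlaR effect differed in 6 of 10, beside 41.7%: ATM, ATR and CHEK2 (-0.99 ± 0.36, adjusted p = 0.0246) were shifted down in SUM1315 relative to MDA-MB-468, and CHEK1, WEE1 and CDC25A (0.73 ± 0.23, adjusted p = 0.00817) were shifted up. The CHEK2 value was lost without SUM1315 olaparib library 1 (0.0811) or 2 (0.0522), MDA-MB-468 OlaR library 1 (0.0751) or 3 (0.0546) or MDA-MB-468 olaparib library 1 (0.0553), and the CDC25A value without SUM1315 OlaR library 2 (0.0575). The CDDP effect in OlaR cells differed in 2 of 10, beside 5.44%: ATM (0.78 ± 0.17, adjusted p = 0.00481) and ATR (0.96 ± 0.20, adjusted p = 0.00301), of which the ATM value was lost by voom (0.126) and by edgeR with DESeq2 size factors (0.0528). Sequencing was in batches of 27 libraries whose members are not stated, and the doses differed between the lines. A batch therefore cannot be told apart from the line or from OlaR status.

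Counts of list genes are set beside the share of all genes called in the same comparison, which was 43.9% in SUM1315 and 25.1% in MDA-MB-468 for the higher CDDP dose, 8.44% and 23.1% for that dose added to olaparib, and 47.2% and 51.5% for OlaR against olaparib-treated cells. A list of 14 genes held the clamp (RAD9A, RAD1, HUS1), RHNO1, ETAA1, the loader subunits RFC2, RFC3, RFC4 and RFC5, RPA1, RPA2, RPA3, TIMELESS and TIPIN. Of these 14, 12 were higher and none lower with the higher CDDP dose in SUM1315 cells (median log2 difference 0.85, all genes 0.00). In MDA-MB-468 cells 12 were higher and none lower (median 0.47, all genes 0.01). RAD17, which works with the same loader, was lower in both lines (-0.63 and -0.42). In SUM1315 cells the values with the smallest p were those of RPA3 (1.49 ± 0.11), a subunit of the protein that coats single-stranded DNA, and of the replication factor C subunits RFC2 (1.56 ± 0.17), RFC3 (1.08 ± 0.12) and RFC5 (1.27 ± 0.15). In OlaR against olaparib-treated cells 5 of the 14 were higher in SUM1315 (1 lower) and 5 in MDA-MB-468 (none lower), and RFC2 had the smallest p in both, at 1.98 ± 0.17 and 1.65 ± 0.11. Of 10 double-strand break mediators, 4 were higher and 1 lower with the higher dose in SUM1315 cells (median 0.06) and 2 higher and 1 lower in MDA-MB-468 cells (median -0.02), shares close to those of all genes (43.9% and 25.1%). In OlaR MDA-MB-468 cells 3 were higher and 4 lower than with olaparib, among the latter the ubiquitin ligase RNF8 (-0.97 ± 0.08), NBN (-0.58 ± 0.11) and the nuclease MRE11 (-0.66 ± 0.12). In OlaR SUM1315 cells 3 were higher and 2 lower, with PRKDC, the catalytic subunit of DNA-PK, at 1.09 ± 0.09 and the MRE11 partners NBN at -0.97 ± 0.15 and RAD50 at -0.74 ± 0.18.

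Of 15 replication and G1/S genes, 14 were higher with the higher CDDP dose in each line and none lower, with medians of 1.25 in SUM1315 and 0.74 in MDA-MB-468, where 43.9% and 25.1% of all genes were called in either direction. With that dose added to olaparib, 9 were higher in SUM1315 (median 0.50) and 15 in MDA-MB-468 (median 0.60) and none lower, beside 8.44% and 23.1% of all genes. RRM2, a subunit of the enzyme that makes deoxynucleotides, rose by 2.48 ± 0.10 in SUM1315 cells and by 1.56 ± 0.05 in MDA-MB-468 cells, and CDC6, a licensing factor, by 1.58 ± 0.09 and 1.08 ± 0.07. In OlaR against olaparib-treated cells 12 of the 15 were higher and none lower in SUM1315 (median 1.07), and 10 were higher and 2 lower in MDA-MB-468 (median 0.33), among them E2F2 at 1.00 ± 0.08 and RRM2 at -0.43 ± 0.05. The part of S phase cells in the rise of CLSPN and CDC25A was not tested.

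Genes of mitotic entry, which the checkpoint restrains, moved in both directions. Of 10 listed genes 9 could be tested, and PKMYT1 could not. Adding the higher CDDP dose to olaparib lowered 7 of the 9 in MDA-MB-468 cells and raised none (median -0.60, with 23.1% of all genes called), with the mitotic kinase PLK1 at -1.75 ± 0.12, AURKA at -1.11 ± 0.06 and cyclin gene CCNB1 at -1.35 ± 0.06. In SUM1315 cells it lowered 3 and raised 1 (median -0.29, with 8.44% of all genes called), with CCNB1 at -0.75 ± 0.09, PLK1 at -0.92 ± 0.16 and CDK1 at 0.35 ± 0.10. With the higher dose alone 6 of the 9 were higher and 2 lower in SUM1315 cells (median 0.54) and 2 were higher and 3 lower in MDA-MB-468 cells (median 0.17). In OlaR against olaparib-treated cells 8 were lower in MDA-MB-468 (median -0.55) and 3 in SUM1315 (median -0.31), and none higher in either, beside 51.5% and 47.2% of all genes called. Olaparib alone had raised 8 over untreated cells in MDA-MB-468 (median 0.54) and 6 in SUM1315 (median 0.68). It lowered none, beside 21.5% and 36.0% of all genes called. Against untreated cells, OlaR MDA-MB-468 cells had 1 higher and 1 lower (median 0.02, beside 53.5%). OlaR SUM1315 cells had 6 higher and 2 lower (median 0.72, beside 54.7%).

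Of 6 arrest targets of p53, which is mutant in both lines by the study's account, 3 were higher and 1 lower with the higher CDDP dose in SUM1315 cells (median 0.52) and 5 higher and none lower in MDA-MB-468 cells (median 0.73), beside 43.9% and 25.1% of all genes called. CDKN1A, the CDK inhibitor p21, rose by 1.19 ± 0.08 and 0.92 ± 0.21. In OlaR against olaparib-treated SUM1315 cells 4 of the 6 were lower and none higher (median -0.78, beside 47.2% of all genes called), with the stress gene SESN2 at -1.36 ± 0.13 and MDM2 at -0.98 ± 0.11. In MDA-MB-468 cells 1 was higher and 2 lower (median 0.07), a share close to the 51.5% of all genes. A list of 4 phosphatases held PPM1D, PPP1CA, PPP2CA and PPP5C. All 4 were higher with the higher dose in SUM1315 cells (median 0.85) and 1 in MDA-MB-468 cells (median 0.10). Of all genes 43.9% and 25.1% were called. PPM1D, which dephosphorylates ATM targets, was lower in OlaR than in olaparib-treated SUM1315 cells (-1.11 ± 0.22, adjusted p = 9.35e-05). Of 3 factors that stabilise ATM and ATR as proteins, 2 were higher with the higher dose in SUM1315 cells (TELO2 and TTI1), beside 43.9% of all genes called. None passed in MDA-MB-468 cells. In OlaR against olaparib-treated SUM1315 cells 1 of the 3 was higher (TTI1, 0.77 ± 0.16) and 1 was lower, beside 47.2%. In MDA-MB-468 cells TTI1 was higher (0.70 ± 0.21) and none was lower, beside 51.5%.

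The order of the condition means shows which neighbours stood apart. For CHEK1 in SUM1315 cells, 4 of the 8 steps between neighbouring conditions overlapped in their libraries, and in MDA-MB-468 cells likewise 4 of 8, with the OlaR conditions lowest. ATM overlapped in 6 of 8 steps in SUM1315 cells, where 1 gap separated the parental conditions (lowest mean 174) from the OlaR conditions, and the other separated OlaR cells without CDDP, the lowest, from the rest. CLSPN ranged 5.33-fold between its lowest mean (149, untreated) and its highest (792, OlaR with the higher dose) in SUM1315 cells, the widest range of the members, and 2.39-fold in MDA-MB-468 cells. All 8 steps overlapped for ATRIP and TOPBP1 in both lines, for ATR and WEE1 in SUM1315 cells and for RAD17 and CHEK2 in MDA-MB-468 cells. The narrowest range was that of RAD17 in MDA-MB-468 cells, 1.36-fold.

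The genes most like each member were sought over the 18 condition means of log2 values after removing each line's mean, among 9729 genes. These correlations are descriptions, and the conditions of a line share its libraries' preparation. CDC25A was most like CDC6 (r = 0.977) and MCM2 (0.932), CLSPN was most like FAM111B (0.946) and ORC1 (0.939), CHEK1 was most like E2F8 (0.937) and MCM10 (0.935), and TOPBP1 was most like CENPU (0.918) and ATAD2 (0.903). CDC6, MCM2, ORC1 and MCM10 are replication genes. ATM was most like CUL5 (0.964), the neighbour named above, and JAK2 (0.957), ATR was most like TMA16 (0.914) and MBLAC2 (0.912), and WEE1 was most like PTMS (0.948) and KIFC3 (0.946). CHEK2 was most like AAGAB (0.916) and COA1 (0.892), ATRIP was most like SERTAD2 (0.806) and EXOSC9 (0.799), and RAD17 was most like SPTLC2 (0.788) and MMGT1 (0.781). Among the members themselves CLSPN and CDC25A were most alike (0.878), followed by TOPBP1 and CHEK1 (0.794), while RAD17 ran opposite to CDC25A (-0.445), CLSPN (-0.428), TOPBP1 (-0.393) and CHEK1 (-0.300).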

How the data were processed

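RNA was measured in 54 libraries by 3′ end sequencing. The submitters' processing notes name CASAVA 1.8.2, FastQC, STAR, HTSeq, edgeR and the build hg38, and the strand setting and annotation used for counting are not given in the sources used here. The authors deposited edgeR-adjusted read counts, a scaled signal per gene rather than raw counts. Whole reads were recovered, and each of the 1483380 values was regained from a whole number of reads to within 1e-06 of its size. The deposited tables of log2 fold changes, p-values and FDR against untreated cells were not used.

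Values were tested as log2(adjusted read count + 1) with limma 3.58.1 (R 4.3.3, intensity trend), over genes with at least 10 in at least 3 libraries, in 1 fit of the 27 libraries of each line and 1 of all 54. Fold changes are on that scale, which understates those of low genes. P-values were adjusted over all tested genes by Benjamini-Hochberg, and a call is an adjusted p of at most 0.05. edgeR 4.0.16 and DESeq2 1.42.0 on the recovered reads, other pseudocounts, no filter, only the groups compared, a replicate block, median centring, voom and leaving out each library were alternatives. The members, the lists and the rules were chosen with earlier results of these data known. The text names all 10 members, up to 4 list genes with the smallest p in a comparison, and the 2 genes most like each member.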

Additional observations from a re-analysis of the deposited data

Results flagged for a closer look

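All 18 results here are differences between 2 responses, each tested as an interaction in limma with adjustment over all genes. In SUM1315 cells the response to the higher CDDP dose differed with olaparib from that without for ATM (0.65, adjusted p = 0.028), CLSPN (-1.33, adjusted p = 0.000849) and CHEK1 (-0.73, adjusted p = 0.000788). In MDA-MB-468 cells it differed for CLSPN (0.39, adjusted p = 0.00429) and CHEK2 (-1.02, adjusted p = 0.000922). In OlaR against olaparib-treated MDA-MB-468 cells the CDDP response differed for CLSPN (-0.29, adjusted p = 0.046) and CHEK2 (0.70, adjusted p = 0.0337). These 2 calls were fragile. The CLSPN call was kept in 5 of 10 alternatives and 2 of 12 fits without 1 library, and the CHEK2 call in 8 of 10 and 6 of 12. The ATM call in SUM1315 cells was kept in 8 of 12 such fits.

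Between the lines (SUM1315 minus MDA-MB-468, with unequal doses) the response to the higher CDDP dose differed for TOPBP1 (0.61, adjusted p = 0.00457), CLSPN (1.46, adjusted p = 5.21e-06) and CHEK1 (0.98, adjusted p = 8.15e-09). The OlaR difference from olaparib-treated cells differed for ATM (-1.33, adjusted p = 2.03e-08), ATR (-1.03, adjusted p = 4.55e-05), CHEK1 (0.68, adjusted p = 5.63e-06), CHEK2 (-0.99, adjusted p = 0.0246), WEE1 (1.49, adjusted p = 3.1e-08) and CDC25A (0.73, adjusted p = 0.00817). The CDDP response of OlaR cells differed for ATM (0.78, adjusted p = 0.00481) and ATR (0.96, adjusted p = 0.00301). This ATM call was kept in 8 of 10 alternatives. Among the OlaR differences above, the CHEK2 call was kept in 7 of 12 fits without 1 library and the CDC25A call in 11 of 12.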

How the results depend on the processing

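Of 105 calls of a member in a comparison, 92 were kept in every alternative analysis, 70 in every fit without 1 library and 68 in both, and 0 reversed. In SUM1315 cells the number of members called moved with olaparib alone to 2 (median centring, voom), between the CDDP doses to 5 (both edgeR analyses), for the lower dose added to olaparib to 1 (no filter), and for the combination against the higher dose to 6 (only the groups compared) or 4 (voom, both edgeR analyses, DESeq2). It moved to 1 for the lower dose in OlaR cells and for the OlaR interaction (only the groups compared). In MDA-MB-468 cells it moved with olaparib alone to 2 (only the groups compared, voom) or 3 (both edgeR analyses, DESeq2), between the doses to 2 (only the groups compared) or 3 (voom, both edgeR analyses, DESeq2), for the higher dose in OlaR cells to 2 (voom, both edgeR analyses, DESeq2), and for the OlaR interaction to 0 (no filter) or 1 (block, median centring, voom, edgeR with DESeq2 size factors, DESeq2). The line difference in the CDDP response of OlaR cells moved to 1 (voom, edgeR with DESeq2 size factors). The cause was not tested.

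Without 1 library, the counts in SUM1315 cells ranged from 1 to 3 (olaparib), 4 to 7 (lower dose), 5 to 6 (higher dose), 2 to 4 (between doses), 0 to 2 and 2 to 4 (lower and higher dose added to olaparib), 2 to 3 (combination against higher dose), 5 to 7 and 6 to 8 (OlaR against olaparib and untreated), 0 to 1 and 3 to 5 (lower and higher dose in OlaR), 0 to 1 (OlaR interaction) and 2 to 4 (olaparib interaction). In MDA-MB-468 cells, in the same order, they ranged from 0 to 1, 3 to 6, 4 to 5, 0 to 1, 1 to 3, 5 to 5, 1 to 3, 5 to 6, 5 to 7, 1 to 2, 2 to 4, 0 to 2 and 2 to 2. Between the lines they ranged from 4 to 5 (untreated), 3 to 4 (higher dose), 5 to 6 (OlaR) and 2 to 2 (higher dose in OlaR).

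Counts moved by over 1.5 times without single libraries. In SUM1315 cells these were olaparib library 1 (2) or 3 (3) for olaparib; olaparib library 1 or 2 or combination library 1 (0 each) or combination library 2 or 3 (1 each) for the lower dose added to olaparib; combination library 2 (2) for the higher dose added; OlaR library 2 (1) for the lower dose in OlaR; OlaR library 3 or CDDP library 1 (3 each) for the higher dose in OlaR; and olaparib library 3 (1) for the OlaR interaction. In MDA-MB-468 cells these were olaparib library 2 or 3 or untreated library 3 (0 each) for olaparib, untreated library 2 (3) for the lower dose, lower-dose library 2 or higher-dose library 3 (0 each) between doses, combination library 3 (1) for the lower dose added to olaparib, library 3 of either group (1 each) for the combination against the higher dose, OlaR library 3 (1) for the lower dose in OlaR, and OlaR library 3 or CDDP library 1 (2 each) for the higher dose in OlaR. The OlaR interaction there fell to 0 without OlaR library 2, olaparib library 2 or combination library 2 or 3, and to 1 without any other library but OlaR library 1.

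Same-numbered libraries shared little of their deviations, with correlations of -0.125 to 0.188 in SUM1315 cells (4 of 108 pairs over 0.1) and of -0.0601 to 0.0497 in MDA-MB-468 cells (0 of 108). These values cannot show whether same-numbered libraries were prepared together. With the replicate block the counts were 2 between doses, 3 for the higher dose added to olaparib, 3 for the combination against the higher dose and 5 for the higher dose in OlaR in SUM1315 cells, 3 for the higher dose in OlaR and 1 for the OlaR interaction in MDA-MB-468 cells, and as before elsewhere. Depth limits ATRIP most, with 12 reads in its lowest library.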
